A study of Mus musculus with 8 samples.

Results

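The endothelin system was described through its 7 genes: the ligand genes Edn1, Edn2 and Edn3, the receptor genes Ednra and Ednrb, and the converting enzyme genes Ece1 and Ece2. They were taken as a list of gene names, and 6 of them were analysed among the 22873 genes of the count tables. Edn2 was not analysed here. The tissue was the mouse iris, profiled by single nucleus RNA sequencing, in which each UMI (unique molecular identifier) counts a captured RNA molecule of a nucleus. Levels are given in CPM, a gene's UMIs in a cell type of a library scaled by all UMIs of that cell type and library.

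Endothelins are short peptides that are cut from longer precursors, first by furin-type proteases and then by the endothelin converting enzymes. They act on a pair of G protein-coupled receptors. The A receptor, encoded by Ednra, is best known for contraction of smooth muscle and prefers the peptides made from Edn1 and Edn2. The B receptor, encoded by Ednrb, binds all of the ligands, and with the peptide of Edn3 it is known for its part in the development of melanocytes and enteric neurons, both derived from the neural crest.

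All irises came from wild type albino female mice aged 6 to 8 weeks, and each of the 8 libraries was a separate pool of 5 or 6 irises. There were 3 untreated libraries, 3 constricted libraries (hourly drops of the muscarinic agonist pilocarpine, mice in the light) and 2 dilated libraries (hourly drops of the adrenergic agonist phenylephrine and the muscarinic antagonist cyclopentolate, mice in the dark), each treatment lasting 6.5 h. Drug and lighting differed together and cannot be told apart. The cell types were the 10 types assigned by the authors: dilator muscle, sphincter 1, sphincter 2, iris pigment epithelium (iris PE), ciliary body epithelium (CBE), ciliary body (CB), stroma 1, stroma 2, leukocytes and endothelial cells.

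The libraries held 1274 to 7321 nuclei, 34357 in all, with medians of 2775 to 4698 UMIs per nucleus and 5189437 to 25136427 UMIs per library. Endothelial nuclei were few, at 12 to 65 per library, while stroma 2 gave 237 to 1446, stroma 1 gave 99 to 592 and sphincter 2 gave 26 to 190. Some 195 cell barcodes occurred in more than 1 library, in 400 nuclei, and untreated 1 and dilated 1 shared 63 of them, 59 in nuclei of the same cell type. Untreated 1 and constricted 1 shared 14, 13 of the same cell type, and constricted 1 and dilated 1 shared 18, 11 of the same cell type, while in every other pair of libraries at most 3 were of the same cell type. Untreated 1 had the largest share of such nuclei, 5.00%. The markers of the 3 cell types with the highest untreated levels of Edn1, Edn3, Ednra, Ednrb and Ece1 were in place. Pax3 and Sox10 were highest in stroma 1, Tfap2b and Pdgfra in stroma 2, and all 7 endothelial markers in endothelial cells. Stroma 1 also had by far the highest Dct (20924 CPM, untreated mean), a gene of melanin synthesis, which was detected in all 2315 of its nuclei. Of the markers listed for the other types, Myh11 was highest in sphincter 1 and not in dilator muscle or sphincter 2, Adra1a, Chrm3 and Syt1 were higher in another muscle type than in sphincter 2, Otx1 and Pax6 were not highest in iris PE, and Zic1, Pax6 and Slc4a4 were not highest in CBE.

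In untreated irises the endothelin genes were highest in a small number of cell types. Edn1 led in endothelial cells, Edn3 and Ednra in stroma 2, Ednrb in stroma 1, and Ece1 in endothelial cells. Over all libraries, 265 of the 296 Edn1 UMIs (89.5%) lay in endothelial nuclei, 4598 of 5255 Edn3 UMIs (87.5%) and 1797 of 2298 Ednra UMIs (78.2%) in stroma 2, and 5332 of 5914 Ednrb UMIs (90.2%) in stroma 1. Ece1 was more widely spread, with 1298 of its 3195 UMIs (40.6%) in stroma 2, the most of any type. The cell types were clustered on these same counts, so levels are compared between them without a test.

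**Figure D1:**
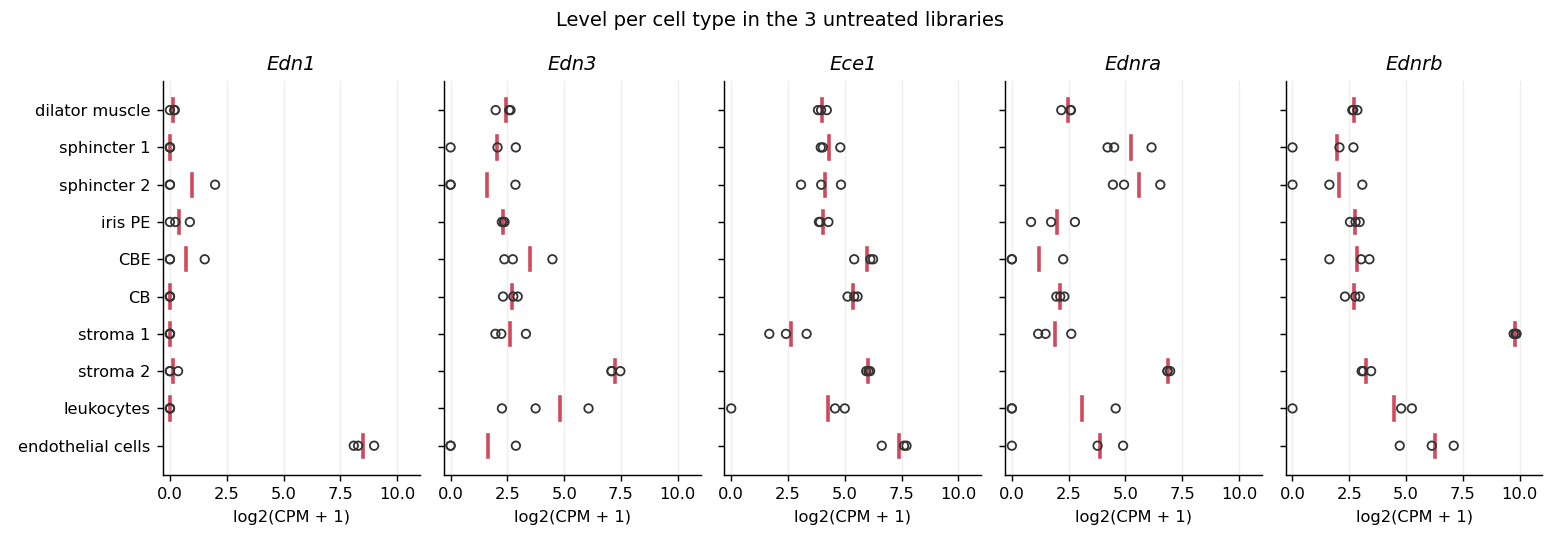
Level of each endothelin gene in the 10 cell types of untreated irises, as log2(CPM + 1), with a circle for each of the 3 libraries and a red line at their mean CPM. Edn1 stands out in endothelial cells (363 CPM), Edn3 and Ednra in stroma 2 (149 and 117 CPM), Ednrb in stroma 1 (894 CPM) and Ece1 in endothelial cells (167 CPM).

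The 250 bases before the start sites of the ligand genes Edn3 and Edn1 and of the receptor gene Ednrb are shown because these genes had the most cell type-restricted transcripts. The sequences are those of RefSeq (GRCm38.p6, the build named mm10 in the authors' processing) and run 5′ to 3′ on the strand of each gene. They lie at chr2:174760369-174760618 (plus strand), chr13:42301226-42301475 (plus strand) and chr14:103843702-103843951 (minus strand); the last lies in an intron of a longer Ednrb transcript of the GENCODE annotation. Capitals mark the only match found to the motifs searched, TGACG in Ednrb.
Edn3: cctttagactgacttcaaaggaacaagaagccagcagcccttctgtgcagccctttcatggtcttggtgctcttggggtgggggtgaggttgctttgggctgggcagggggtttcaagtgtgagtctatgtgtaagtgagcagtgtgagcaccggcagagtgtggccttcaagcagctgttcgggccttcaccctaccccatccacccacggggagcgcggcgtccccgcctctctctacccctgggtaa
Edn1: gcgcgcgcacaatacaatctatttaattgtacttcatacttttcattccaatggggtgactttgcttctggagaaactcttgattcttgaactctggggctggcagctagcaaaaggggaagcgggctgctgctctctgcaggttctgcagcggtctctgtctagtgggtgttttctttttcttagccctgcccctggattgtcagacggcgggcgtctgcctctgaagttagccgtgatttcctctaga
Ednrb: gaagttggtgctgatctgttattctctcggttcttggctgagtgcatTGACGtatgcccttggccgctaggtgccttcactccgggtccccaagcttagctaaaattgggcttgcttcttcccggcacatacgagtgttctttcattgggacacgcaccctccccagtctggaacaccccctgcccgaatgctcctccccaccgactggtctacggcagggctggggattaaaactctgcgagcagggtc
Both strands were searched for 8 motifs: the TATA box TATAAA, the cAMP response element TGACGTCA, its core TGACG, the AP-1 site TGANTCA, the GATA site AGATAA, the SOX site ACAANG, the E-box CACGTG and the GC box GGGCGG. The full cAMP response element contains its core, so a match to the first is also a match to the second. Among 32536 promoter windows of the same length, these letters occur in 12.3%, 1.56%, 17.9%, 6.73%, 9.97%, 36.2%, 6.04% and 33.0%, respectively. In these windows the TGACG of Ednrb, 203 bases before the start, was the single match, and the window of Ednra had none of the motifs. A match is a description of the letters and not a site of binding.

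Edn1 encodes the precursor of endothelin 1, a vasoconstrictor made by endothelium. Its gene lies at chr13:42301476-42307990. In endothelial cells its level was 271.5, 310 and 506 CPM in untreated libraries 1, 2 and 3, a mean of 363 ± 126 CPM (SD, n = 3) resting on 151 UMIs. Every other cell type had a mean of at most 0.988 CPM. The next highest was sphincter 2 with 2 UMIs, and the log2 ratio of the pooled levels was 7.96 (95% exact binomial interval 6.08 to 11.0). No Edn1 UMI was found in 2315 stroma 1 nuclei of all libraries, which allows a share of up to 0.13%, or in 387 leukocytes, which allows up to 0.775%. These limits concern nuclei with a UMI and not nuclei expressing the gene, since an Edn1 UMI was found in only 40.0% of untreated endothelial nuclei. The intervals and limits cover counting error only.

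Edn3 encodes the precursor of endothelin 3, and its gene lies at chr2:174760619-174784042. Its level in untreated stroma 2 was 176, 135 and 134 CPM, a mean of 149 ± 24.2 CPM (SD, n = 3) from 1052 UMIs. Leukocytes came next at 27.5 ± 33.8 CPM, but from 5 UMIs, and the remaining types lay between 2.08 and 10.4 CPM with ranges that ran into each other. Over all libraries 35.0% of stroma 2 nuclei (2368 of 6763) had an Edn3 UMI. The other types ranged from 0.983% of sphincter 2 nuclei, the lowest, to 3.62% of leukocytes, the highest. The medians were 2435, 3360 and 1971 UMIs per nucleus in stroma 2, sphincter 2 and leukocytes.

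Ednra encodes the A receptor and lies at chr8:77663031-77724464 on the minus strand. Its untreated level in stroma 2 was 115, 124 and 114 CPM (mean 117 ± 5.54, SD, n = 3, 893 UMIs). Both sphincter types came next and did not separate from each other: sphincter 2 had 47.4 ± 38.6 CPM and sphincter 1 had 36.4 ± 29.1 CPM. Dilator muscle, the other iris muscle, had 4.52 ± 0.870 CPM. An Ednra UMI was found in 19.6% of stroma 2 nuclei, 12.9% of sphincter 2 nuclei and 9.79% of sphincter 1 nuclei over all libraries. The remaining types ranged from 0.471% of iris PE nuclei, the lowest, to 1.47% of CB nuclei, the highest. The medians were 2435, 3360, 3215, 3079 and 3014 UMIs per nucleus in these types, in that order. Ednra was also set relative to stroma 2 of the same library. Over all 8 libraries the median was 49.4% (0 to 68.3%) in sphincter 1 and 34.8% (16.8% to 202.5%) in sphincter 2. In the untreated libraries the means were 31.4% and 40.9%. As medians over all libraries, the stroma 2 marker Pdgfra reached 2.53% and 1.25%, and Tfap2b 2.01% and 0.456%. Among sphincter 1 nuclei, Tfap2b was present in 14.1% of those with an Ednra UMI and in 6.36% of the others. Pdgfra was present in 7.07% and 2.63%. In sphincter 2 the shares were 6.52% and 4.19% for Tfap2b and 2.17% and 2.58% for Pdgfra. At 1000 UMIs drawn per nucleus, only 31 sphincter 1 and 29 sphincter 2 nuclei held Ednra, too few to compare the shares. Sphincter 1 had 3.23% (1 nucleus) and 3.20% for Tfap2b, and 3.23% (1 nucleus) and 1.75% for Pdgfra. Sphincter 2 had 0% and 1.47%, and 3.45% (1 nucleus) and 0.880%. The part of RNA from stroma 2 in these Ednra levels was not tested.

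Ednrb encodes the B receptor and lies at chr14:103814625-103844402 on the minus strand. Stroma 1, the type with melanocyte genes, had 902, 851 and 929 CPM in the untreated libraries (mean 894 ± 39.6, SD, n = 3, 3172 UMIs). In 77.8% of stroma 1 nuclei (1800 of 2315) at least 1 Ednrb UMI was present, against 1.83% of stroma 2 nuclei, at medians of 2667 and 2435 UMIs per nucleus. Among all types but stroma 1 the share ranged from 0.791% in sphincter 1 to 11.0% in endothelial cells. Endothelial cells followed with 76.7 ± 55.6 CPM and leukocytes with 21.2 ± 19.1 CPM, and the other types lay between 2.87 and 8.30 CPM.

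The B receptor of endothelial cells is part of the textbook account of endothelin, so the 30 endothelial nuclei with an Ednrb UMI were examined for stroma 1 genes. Sox10 was present in 4 of these 30 nuclei (13.3%) and in 0.823% of the other endothelial nuclei, and Pax3 in 16.7% and 0.823%. The endothelial gene Flt1 was present in 96.7% of both. Nuclei with Ednrb also held more UMIs, with a median of 2909 against 1862. The melanocyte marker list summed to 3777 CPM (range 2823 to 4940) in endothelial cells of untreated irises, to 896 CPM (241 to 1413) in constricted and to 2498 CPM (2328 to 2667) in dilated irises, against 31758 CPM in untreated stroma 1. Endothelial Ednrb itself averaged 76.7, 85.2 and 134 CPM in untreated, constricted and dilated irises, from 23, 10 and 36 UMIs. The libraries ranged over 25.3 to 136, 38.3 to 110 and 20.6 to 248 CPM, so the groups overlapped. The higher dilated mean rests on 1 of the 2 dilated libraries. As a share of stroma 1 of the same library it averaged 8.48%, 9.64% and 19.9%. The Sox10 share averaged 7.51% (0 to 13.1%), 0% and 1.34% (0 to 2.68%). The part of RNA from stroma 1 in the endothelial Ednrb level was not tested.

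Of the converting enzymes, Ece1 lies at chr4:137862237-137965229. It was highest in endothelial cells, the type that led for Edn1, at 194, 209 and 97.8 CPM in the untreated libraries (mean 167 ± 60.3, SD, n = 3, 60 UMIs). Stroma 2, the type that led for Edn3, had 64.5 ± 3.88 CPM, CBE had 61.7 ± 17.6 CPM and CB had 40.5 ± 6.30 CPM. Endothelial cells did not overlap with stroma 2, while neighbours among stroma 2, CBE and CB did. Stroma 1 was lowest for Ece1 at 5.16 ± 3.46 CPM. Ece2, at chr16:20629828-20646485, gave only 7 UMIs in the whole series, 5 of them in iris PE, and no comparison was made for it.

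Levels of different genes were set beside each other per length, although counts from 3′ ends need not grow with the length of the exons. Per kilobase of exons, the untreated level of Ednrb in stroma 1 was highest at 209.5 CPM, followed by Edn1 in endothelial cells at 169.5, Edn3 in stroma 2 at 36.1, Ece1 in endothelial cells at 31.5 and Ednra in stroma 2 at 21.5 CPM. Reads from introns were counted too, and per kilobase of the whole gene the order changed, with Edn1 at 55.7 CPM above Ednrb at 30.0, Edn3 at 6.34, Ednra at 1.91 and Ece1 at 1.62 CPM.

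Genes with a similar pattern were sought by the Pearson correlation of log2(CPM + 1) over the 10 cell types of untreated irises, among 16454 genes with at least 50 UMIs. Each point is a cell type and all points come from the same 3 libraries, so the values are descriptions without a test. For Edn1 the 5 nearest genes were Rasip1 (r = 0.992), 4930578C19Rik, Ushbp1, Ccm2l and Adgrf5 (0.986). For Edn3 they were Trib3 (0.963), Tmem119, Col27a1, 4930562F17Rik and Plekha4 (0.943), and for Ednra D430036J16Rik (0.957), Tmem123, Pla2r1, Dmgdh and Mat2b (0.936). For Ednrb they were Insc (0.985), Gm26688, Pax3, Pparg and Dcdc2a (0.977), of which Pax3 is a transcription factor of the melanocyte lineage. Ece1 had the weakest partners, from Kmt2a (0.904) to C130060K24Rik (0.888). Among the members, Edn1 and Ece1 were most alike (r = 0.67), while Edn3 and Ednra, which led in the same cell type, had r = 0.34.

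The dilated libraries were then compared with the untreated libraries to ask how the endothelin genes responded to prolonged dilation. Edn3 was called higher in stroma 2 and in dilator muscle, and Ednra in sphincter 2, and none of the members was called lower. Each of these 3 calls was lost when certain single libraries were left out, as given with its values. For each cell type the UMIs of a library's nuclei were added up and tested with edgeR's quasi-likelihood test, and a gene was called when its log2 fold change exceeded 0.6 in size with a Benjamini-Hochberg adjusted p under 0.05 over all genes tested in the cell type. Of the 60 pairs of an analysed member and a cell type, 18 passed the filter on low counts, in 9 cell types, and 42 did not. In all, 3 of the 18 were called, all higher, where 3.34% of all tested gene and cell type pairs were called in either direction. The groups did not overlap in 9 of the 18, against 30.7% of all pairs. The dilated libraries were higher in 3 and lower in 6 of these, among them all 4 tested pairs of Ednrb. Outside stroma 1 the untreated mean of Ednrb in these pairs was at most 8.30 CPM, against 894 CPM in stroma 1. Of the 18 pairs, 6 had an unadjusted p under 0.05. The median log2 fold change was 0.16 over the members' pairs and 0.00 over all pairs. DESeq2 called 2 of the 18, Edn3 in stroma 2 and in dilator muscle, and did not call Ednra in sphincter 2.

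In stroma 2, Edn3 stood at 176, 135 and 134 CPM in untreated libraries 1 to 3, at 212.5, 327 and 512 CPM in constricted libraries 1 to 3, and at 294 and 579 CPM in dilated libraries 1 and 2. Every dilated and every constricted library lay above every untreated one. The fitted rise with dilation was log2 1.63 (SE 0.348), or 3.09-fold, with an adjusted p of 0.0367 in edgeR's quasi-likelihood test, and 1.35% of the genes tested in stroma 2 were called higher. It was no longer called without untreated 1 (1.72, adjusted p = 0.0700), untreated 2 (1.58, 0.159), untreated 3 (1.57, 0.182), constricted 2 (1.63, 0.0762) or dilated 2 (1.00, 0.270). Its mean level was 149 ± 24.2 CPM (n = 3) in untreated, 350.5 ± 151 CPM (n = 3) in constricted and 437 ± 202 CPM (n = 2) in dilated irises.

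**Figure D2:**
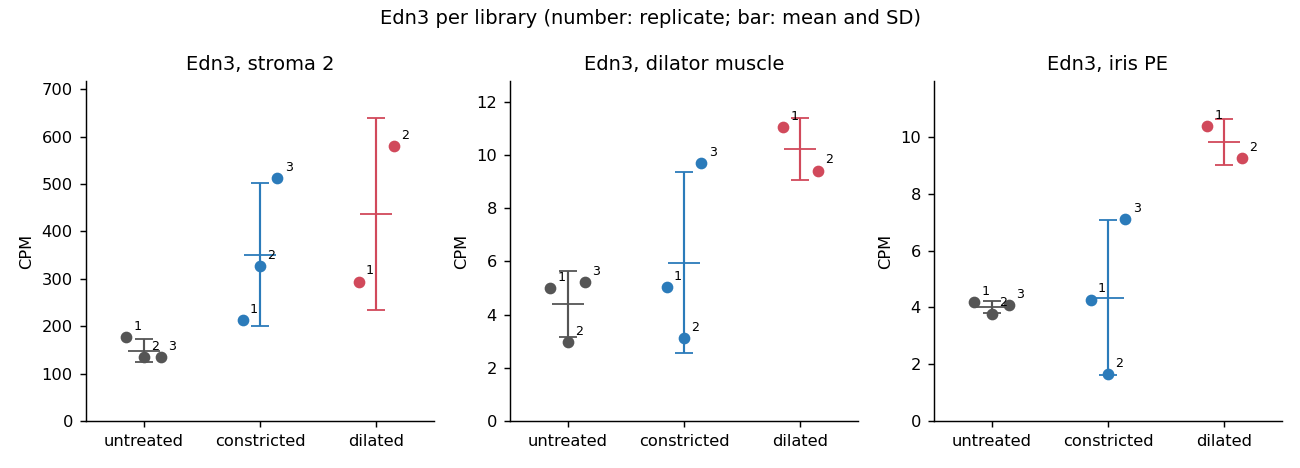
Edn3 level in CPM in each library, by condition, in stroma 2, dilator muscle and iris PE, with bars for the mean and SD of each condition. In stroma 2 the 3 untreated libraries lie between 134 and 176 CPM and the other 5 between 212.5 and 579 CPM.

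Counts per nucleus gave the same order of conditions. After each nucleus was thinned to 1000 UMIs, 11.2 ± 0.48% of untreated stroma 2 nuclei had an Edn3 UMI (SD, n = 3), against 22.8 ± 8.34% in constricted (n = 3) and 28.1 ± 8.52% in dilated irises (n = 2). Without thinning the shares were 24.4%, 43.3% and 49.0%. Nuclei with 3 or more Edn3 UMIs made up 7.22%, 1.75% and 1.73% of stroma 2 in the untreated libraries, 3.796%, 16.5% and 14.97% in the constricted libraries, and 8.28% and 17.9% in the dilated libraries. Untreated 1 overlapped with the treated libraries on this measure. The highest count in a single nucleus ranged from 7 to 23.

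**Figure D3:**
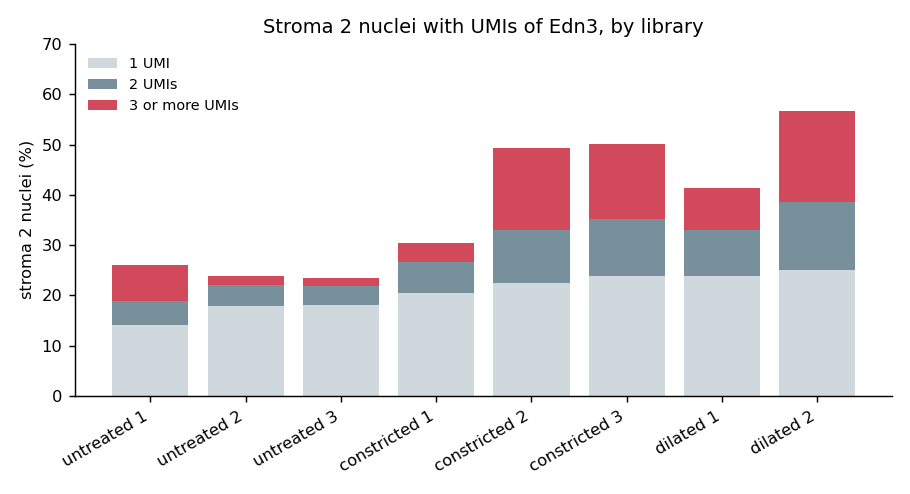
Share of stroma 2 nuclei with 1, 2 or at least 3 Edn3 UMIs in each of the 8 libraries, in percent. Nuclei with at least 3 UMIs range from 1.73% in untreated 3 to 17.9% in dilated 2.

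In dilator muscle Edn3 was scarce and was also called higher. The untreated libraries had 4.99, 2.96 and 5.22 CPM, the constricted libraries 5.03, 3.102 and 9.71 CPM, and the dilated libraries 11.1 and 9.42 CPM. Both dilated libraries lay above all untreated ones and constricted 3 lay between the dilated libraries. The fitted change was log2 1.45 (SE 0.401), or 2.72-fold, with an adjusted p of 0.0303 in edgeR's quasi-likelihood test, and 7.2% of the genes tested in dilator muscle were called higher. With library totals in place of TMM scaling the value was 1.27 (adjusted p = 0.0516), since in this cell type TMM moved the median of all genes by 0.18 on the log2 scale. The call was also lost without dilated 1 (1.40, adjusted p = 0.120), dilated 2 (1.48, 0.0915), untreated 2 (1.19, 0.151) or untreated 3 (1.69, 0.0599).

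In iris PE Edn3 did not pass the threshold. Its level was 4.18, 3.78 and 4.09 CPM in untreated, 4.27, 1.64 and 7.11 CPM in constricted, and 10.4 and 9.25 CPM in dilated libraries, so that the dilated libraries lay above all others. The log2 fold change with dilation was 1.33 (SE 0.387), with an adjusted p of 0.198 in edgeR's quasi-likelihood test. With the library series of the titles as a block it was called in the same test (1.42, adjusted p = 0.0379). A series here is a group of libraries with neighbouring numbers in their titles. Untreated 1, constricted 1 and dilated 1 formed a series, constricted 2 stood alone, and the remaining libraries formed another. These groups are not recorded batches. The paper reports several batches without naming the libraries in each.

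The dilation effect on Edn3 was compared directly between these 3 cell types by an interaction term in a joint fit. Dilator muscle differed from iris PE by 0.09 on the log2 scale (SE 0.342, adjusted p = 0.921), where 12.2% of all genes passed, and from stroma 2 by -0.04 (SE 0.426, adjusted p = 0.986), where 8.13% passed. Stroma 2 differed from iris PE by 0.18 (SE 0.373, adjusted p = 0.919), where 3.29% passed. A difference was not shown in any of these, with standard errors that are large beside the effects.

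Edn3 RNA outside stroma 2 was also highest in the dilated libraries. Pooled over the 9 other cell types its level was 4.82 CPM (3.49 to 6.42) in untreated, 5.74 CPM (2.73 to 9.43) in constricted and 11.2 CPM (11.1 to 11.2) in dilated libraries, and its mean was higher in dilated than in untreated irises in 8 of the 9 types. Relative to the stroma 2 level of the same library it was 2.59% to 3.64% in untreated, 0.833% to 2.39% in constricted and 1.92% to 3.81% in dilated libraries, so that the dilated and untreated shares overlapped. The mean share was 2.97% in untreated and 2.69% in dilated irises for dilator muscle, and 2.74% and 2.57% for iris PE. Sphincter 1 differed, with 0 to 4.70% in untreated and 4.78% to 8.35% in dilated libraries, from 9 and 21 UMIs. Its Edn3 level was 3.17 CPM in untreated and 26.1 CPM in dilated irises. This pair did not pass the filter on low counts. Without the filter it was called higher (log2 2.46, adjusted p = 0.0165 in edgeR's quasi-likelihood test). The share of all sphincter 1 genes called without the filter is not given beside it. With so few UMIs this call is not read as a result about Edn3. The mean Tfap2b share of sphincter 1 was 2.24% in untreated and 1.89% in dilated irises, and that of Pdgfra 1.54% and 2.74%. In sphincter 1, 76 of 1011 nuclei were called doublets, against 75 of 11606 in dilator muscle. The mean Edn3 share also rose in endothelial cells (1.57% to 6.54%, from 1 and 4 UMIs). The mean share was lower with dilation in leukocytes (16.5% and 7.92%, from 5 and 7 UMIs) and CBE (6.47% and 2.68%, from 11 and 28 UMIs). In leukocytes the libraries ranged over 2.81% to 37.5% in untreated and 4.44% to 11.4% in dilated irises. The CBE ranges were 3.09% to 12.1% and 1.28% to 4.08%. Untreated and dilated shares overlapped in endothelial cells, leukocytes and CBE. Over all libraries the median of the pooled share was 2.49%, whereas Tfap2b outside stroma 2 was 0.170% to 0.844% of its own stroma 2 level (median 0.597%) and Pdgfra a median of 0.853%. In dilator muscle Tfap2b was at 8.73, 14.9 and 18.7 CPM in untreated, 15.3, 4.43 and 5.69 CPM in constricted, and 13.03 and 9.82 CPM in dilated libraries. The part of RNA from stroma 2 nuclei in the Edn3 counts of dilator muscle, iris PE and sphincter 1 was not tested.

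Ednra, the contractile receptor, was called in sphincter 2. Its level there was 91.6, 20.8 and 29.7 CPM in untreated, 61.7, 28.9 and 12.7 CPM in constricted, and 44.5 and 170.3 CPM in dilated libraries. The groups overlapped, because untreated 1 lay above dilated 1. Both belong to the same library series of the titles, a grouping by library number and not a recorded batch. Within that series the level was lower with dilation. In the series of untreated 2, untreated 3 and dilated 2 it was higher with dilation. The fit, which gives deeper libraries more weight, gave a log2 fold change of 1.79 (SE 0.482, adjusted p = 0.0352 in edgeR's quasi-likelihood test), or 3.45-fold, while the plain ratio of mean levels was 2.27-fold. Among the genes tested in sphincter 2, 1.46% were called higher. DESeq2 did not call Ednra there. The change was 0.43 (adjusted p = 0.903) without dilated 2, which held 50 of the 62 dilated UMIs, 1.41 (0.286) without untreated 2 and 1.56 (0.270) without untreated 3. In dilated 2 the stroma 2 marker Pdgfra was also at its highest in sphincter 2, at 37.5 CPM against 0 to 17.8 CPM in the other libraries, while Tfap2b was at 17.03 CPM there and at up to 25.2 CPM in the untreated libraries; their part in the Ednra level was not tested.

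**Figure D4:**
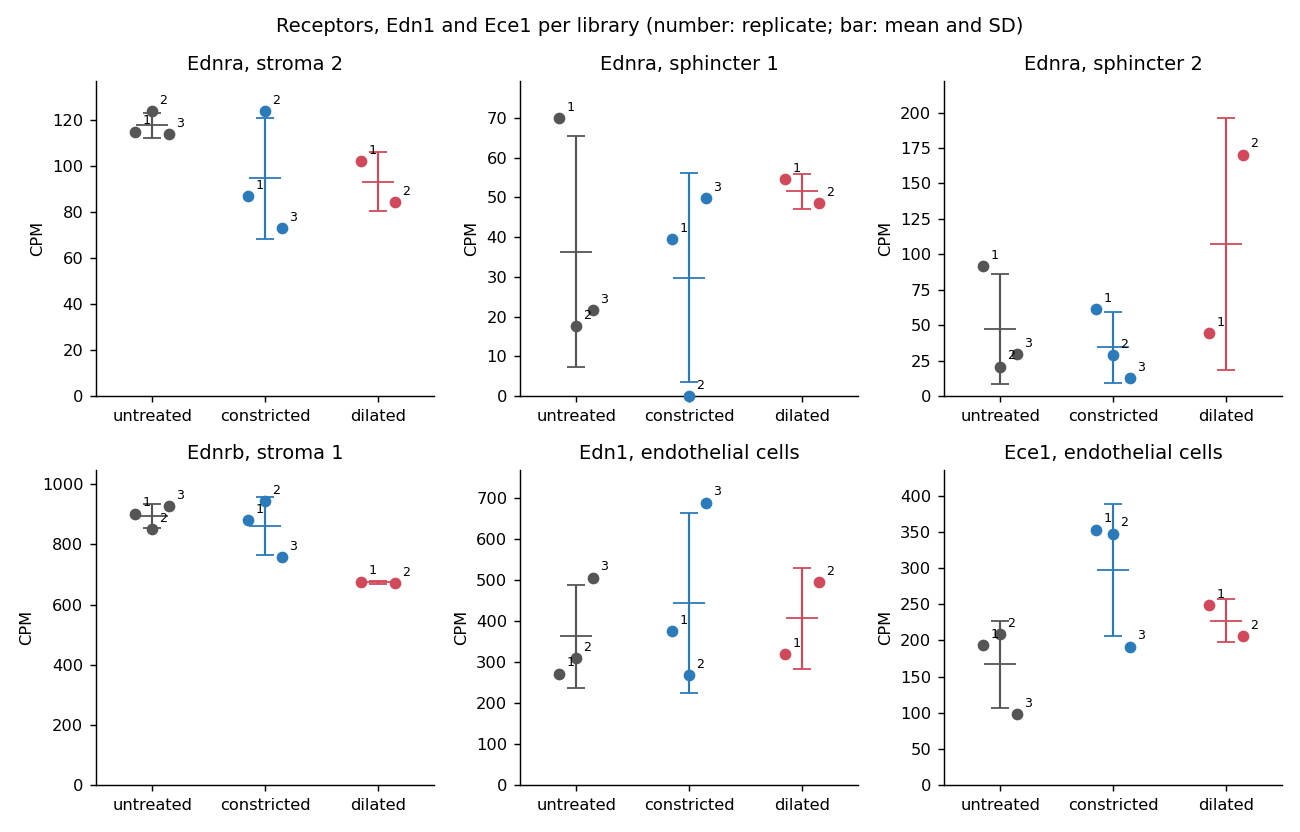
Levels in CPM in each library, by condition, of Ednra in stroma 2, sphincter 1 and sphincter 2, of Ednrb in stroma 1, and of Edn1 and Ece1 in endothelial cells, with bars for the mean and SD of each condition. In sphincter 2, Ednra spans 20.8 to 91.6 CPM in the untreated libraries and 44.5 to 170.3 CPM in the dilated ones.

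Set against other cell types, the dilation effect on Ednra in sphincter 2 was larger than in dilator muscle by log2 2.22 (SE 0.553, adjusted p = 0.00573 in edgeR's quasi-likelihood test), where 2.1% of all genes passed, and larger than in stroma 2 by 2.08 (SE 0.445, adjusted p = 0.00439), where 1.33% passed. These differences dropped to 0.89 (adjusted p = 0.863) and 0.68 (0.860) without dilated 2. They also lost the threshold without untreated 2 (2.03, 0.0855, and 1.65, 0.0752) or untreated 3 (1.92, 0.230, and 1.93, 0.103). No difference was shown from sphincter 1 (0.72, SE 0.543, adjusted p = 0.675), where 3.33% of all genes passed. Such comparisons were run only for members called with dilation, so the same counts selected sphincter 2 and gave these p values.

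In sphincter 1 itself Ednra had 69.9, 17.5 and 21.7 CPM in untreated, 39.5, 0 and 49.8 CPM in constricted, and 54.5 and 48.5 CPM in dilated libraries, with a log2 fold change with dilation of 0.97 (SE 0.503, adjusted p = 0.527). In stroma 2, where Ednra was highest at rest, it had 115, 124 and 114 CPM in untreated, 86.9, 124 and 72.8 CPM in constricted, and 102 and 84.1 CPM in dilated libraries. The dilated libraries lay below the untreated ones in stroma 2, at log2 -0.29 (SE 0.214, adjusted p = 0.696).

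Ednrb in stroma 1 was lower in both dilated libraries without being called. It stood at 902, 851 and 929 CPM in untreated, 879.9, 945 and 757 CPM in constricted, and 676 and 670.2 CPM in dilated libraries. The dilated libraries were below all 6 others, and the log2 fold change was -0.39 (SE 0.153), short of the fold required, with an adjusted p of 0.241 in edgeR's quasi-likelihood test. Over the same libraries the melanocyte list in stroma 1 summed to 31758, 35232 and 38010 CPM as means of untreated, constricted and dilated irises. Most of the untreated sum came from a single gene, Dct.

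**Figure D5:**
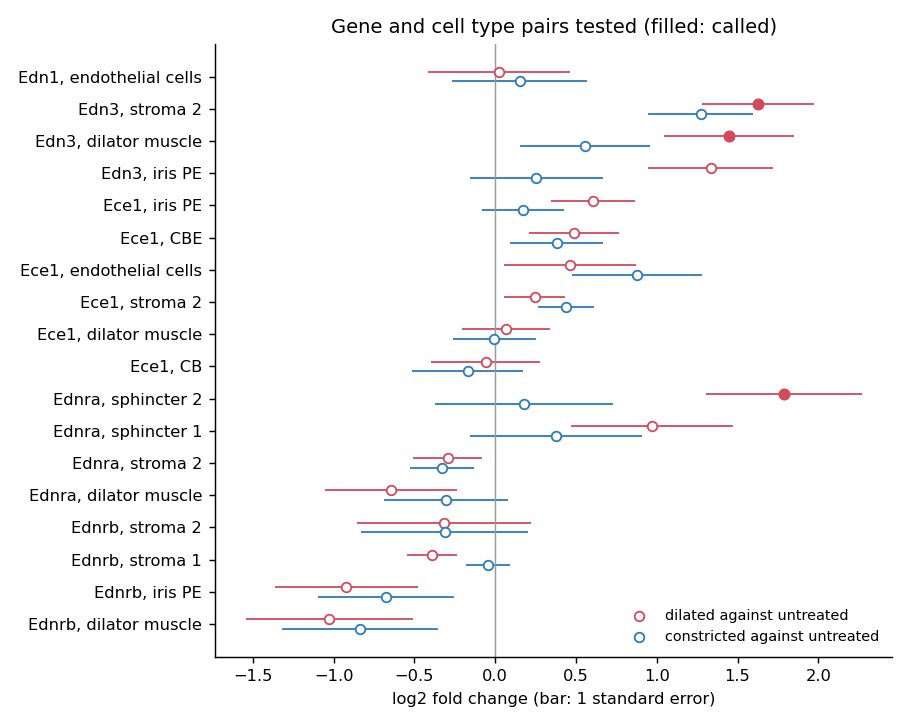
Log2 fold changes of the 18 tested pairs of endothelin gene and cell type, dilated and constricted against untreated, with bars of 1 standard error and filled points for called pairs. With dilation Edn3 in stroma 2 and dilator muscle and Ednra in sphincter 2 were called.

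Edn1 in endothelial cells had 271.5, 310 and 506 CPM in untreated, 375, 267 and 689 CPM in constricted, and 319 and 494 CPM in dilated libraries. The groups overlapped throughout, and the log2 fold change with dilation was 0.02 (SE 0.440, adjusted p = 0.996). Ece1, tested in 6 cell types, was called in none of them, with log2 fold changes with dilation from -0.06 in CB to 0.60 in iris PE (SE 0.258, adjusted p = 0.503). Ednrb in dilator muscle had 6.23, 5.21 and 5.38 CPM in untreated, 4.84, 0.886 and 2.61 CPM in constricted, and 3.45 and 1.002 CPM in dilated libraries, with both dilated libraries below all untreated ones. Its log2 fold change was -1.03 (SE 0.517, adjusted p = 0.218), and with the library series of the titles as a block it was called lower (-1.34, adjusted p = 0.0224). Ednrb in iris PE (log2 -0.92, adjusted p = 0.586) and stroma 2 (-0.32, 0.916), each at a low level, and Ednra in dilator muscle (-0.65, 0.339) were not called. As a share of stroma 1 of the same library, Ednrb averaged 0.627% in untreated and 0.330% in dilated dilator muscle. In iris PE the means were 0.646% and 0.422%, and in stroma 2 0.934% and 1.00%. Sox10 averaged 0.409% and 0.177%, 0.572% and 0.179%, and 0.571% and 0.271% in the same types. Pax3 and Tfap2a shares were lower there too. The part of RNA from stroma 1 in these Ednrb levels was not tested.

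The constricted libraries were compared with the untreated ones in the same fits. None of the 18 pairs was called by edgeR's quasi-likelihood test, where 0.0118% of all pairs were called, and 3 had an unadjusted p under 0.05, all of them higher. The groups did not overlap in 3 of the 18, against 10.5% of all pairs. Edn3 in stroma 2 had the largest value, log2 1.27 (SE 0.323), or 2.41-fold, with an adjusted p of 0.427, and it was the single pair that DESeq2 called (adjusted p = 0.0210). Ece1 in endothelial cells, at 353, 348 and 191 CPM in constricted against 194, 209 and 97.8 CPM in untreated libraries, had log2 0.88 (SE 0.401, adjusted p = 0.448), and Ece1 in stroma 2, at 95.9, 93.7 and 74.8 CPM against 60.4, 68.2 and 64.8 CPM, had log2 0.44 (SE 0.175, adjusted p = 0.898). Between dilated and constricted irises no pair was called by either tool and 4 had an unadjusted p under 0.05. Edn3 in stroma 2 differed by log2 0.36 (SE 0.346, adjusted p = 0.896 in edgeR's quasi-likelihood test). In that comparison edgeR called 68 of 12788 genes in stroma 2, 1610 of 15395 in dilator muscle and 95 of 14128 in iris PE.

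The genes that act before and after the receptors were followed as a list of 47 genes, covering cleavage and breakdown of the peptides, G proteins, phospholipase C beta, calcium stores, desensitization, the ERK arm and contraction. Of these, 46 were analysed and 40 were tested in at least 1 cell type, giving 296 pairs of gene and cell type. With dilation 10 pairs were called higher and 3 lower, or 4.39%, close to the 3.34% of all pairs. In dilator muscle 7 of 39 were called (17.9%, against 13.3% of all genes), in iris PE 3 of 38 (7.89%, against 0.595%), in stroma 2 2 of 36 (5.56%, against 1.73%) and in sphincter 2 1 of 26 (3.85%, against 2.87%). The median log2 fold change was 0.03 over the list and 0.00 over all pairs.

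Among the genes of peptide cleavage and breakdown, Mme, which encodes neprilysin, a membrane peptidase that degrades endothelins and other peptides, rose in dilator muscle by log2 2.41 (SE 0.326, adjusted p = 0.000469 in edgeR's quasi-likelihood test). It had 3.12, 2.96 and 2.69 CPM in untreated, 7.74, 5.32 and 3.55 CPM in constricted, and 15.3 and 12.02 CPM in dilated libraries. The groups did not overlap. Pcsk5, a proprotein convertase, fell in sphincter 2 by 1.28 on the log2 scale (SE 0.283, adjusted p = 0.00782), from 192, 308 and 393 CPM in untreated to 119 and 129 CPM in dilated libraries. It was also the one pair of the list called with constriction, at log2 -1.31 (SE 0.257, adjusted p = 0.0214) and 87.7, 129.9 and 169 CPM. Pcsk5 was called lower with dilation in dilator muscle as well.

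Of the genes that act after the receptors, Rgs2, a brake on Gq signalling, rose with dilation in stroma 2 by log2 2.11 (SE 0.318, adjusted p = 0.00763). It had 18.1, 19.7 and 24.9 CPM in untreated, 31.4, 31.2 and 35.4 CPM in constricted, and 56.1 and 127 CPM in dilated libraries. It also rose in dilator muscle by log2 2.02 (SE 0.616, adjusted p = 0.0459), at low levels of 1.29 CPM in untreated and 4.14 CPM in dilated irises. The untreated libraries held 3, 3 and 10 Rgs2 UMIs there and the dilated ones 31 and 26. The stroma 2 means were 20.9 CPM in untreated and 91.7 CPM in dilated irises. The part of RNA from stroma 2 in the dilator muscle level of Rgs2 was not tested. Prkca, the protein kinase C alpha gene, rose in stroma 2 by log2 1.25 (SE 0.200, adjusted p = 0.0102). It had 354, 315 and 264 CPM in untreated, 359, 352 and 502 CPM in constricted, and 661 and 763 CPM in dilated libraries. Prkca was also called higher with dilation in dilator muscle and iris PE. All of these p values are from edgeR's quasi-likelihood test. These genes serve many receptors, and the list does not single out the endothelin receptors.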

How the data were processed

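The deposited files hold raw UMI counts as whole numbers, for each gene in each nucleus, which the authors made with Cell Ranger 3.1.0 against mm10, counting exons and introns, and clustered with Seurat; their cell type for each nucleus was used. UMIs were added up over the nuclei of a cell type in each library. In 2707 nuclei the counts summed over genes differed from the UMI number deposited for the nucleus, and the summed counts were used. Each cell type was fitted over the 8 libraries with edgeR 4.0.16 (TMM, filterByExpr, quasi-likelihood test, 2-sided, condition as the only term), with Benjamini-Hochberg adjustment over the genes tested in it. DESeq2 1.42.0, other scalings, no filter, left-out libraries, nuclei, doublets and shared barcodes were alternatives. The fits were tested on simulated counts with the same spread for every gene and no library effect. That test does not cover genes that vary more between libraries. Doublets were called with Scrublet in Scanpy 1.11.5 (359 nuclei, 10 to 100 per library) and kept in the main fits. The study tested merged nuclei; here libraries are the replicates, and each is a pool, so p-values measure the spread between pools. All members are named. For the pathway, the 5 called pairs with the largest change are given with values, and further called types of Prkca and Pcsk5 are named. For likeness, the 5 nearest genes are named. Members and lists were chosen with earlier results of these data known.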

Additional observations from a re-analysis of the deposited data

Results flagged for a closer look

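Ednra differed between cell types in its response to dilation, by a test of the difference itself, in a pair of comparisons. That test was run only where a member had been called with dilation. Sphincter 2 was thus selected by the same counts that gave the p values. The effect in sphincter 2 exceeded that in dilator muscle by log2 2.22 (SE 0.553, adjusted p = 0.00573, edgeR's quasi-likelihood test) and that in stroma 2 by 2.08 (SE 0.445, adjusted p = 0.00439). Sphincter 2 gave 62 Ednra UMIs in the dilated libraries, 50 of them from dilated 2. In sphincter 2, dilated 1 lay below untreated 1, a library of the same series of the titles. Without dilated 2 the differences were 0.89 (adjusted p = 0.863) and 0.68 (0.860). Without untreated 2 they were 2.03 (0.0855) and 1.65 (0.0752), and without untreated 3 they were 1.92 (0.230) and 1.93 (0.103).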

How the results depend on the processing

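The 9 member changes with an unadjusted p under 0.05, the differences of the dilation effect and the level ratios kept their direction under each alternative run for them. Other changes near 0 did not all do so: Ece1 in dilator muscle with dilation was 0.07 as reported and -0.11 with the library series as a block. The count of member pairs called with dilation, 3 as reported, was 5 with the library series of the titles as a block, which added Edn3 in iris PE (1.42, adjusted p = 0.0379) and Ednrb in dilator muscle (-1.34, adjusted p = 0.0224), and 0 to 3 with a library left out (0 without dilated 2, untreated 2 or untreated 3). With constriction it was 0 as reported, 1 without the filter and 1 with DESeq2, and 0 to 0 with a library left out. Pathway pairs called with dilation, 13 as reported, numbered 24 with the series block, 19 without the filter and 5 to 14 with a library left out (8 without dilated 2, 6 without untreated 2, 5 without untreated 3). With constriction they numbered 1 as reported, 3 without the filter, 2 with the series block, 2 with DESeq2 and 0 to 2 with a library left out. The share of all genes called under each alternative, DESeq2 and the blocks among them, is not given beside these counts. They are therefore not read as results about the members or the list. The differences in the effect on Ednra ranged over 0.89 to 3.55 (against dilator muscle) and 0.68 to 2.87 (against stroma 2). The untreated log2 ratio of the leading to the next cell type stayed above 0 for Edn1, Edn3, Ednra, Ednrb and Ece1 under each alternative run, lowest for Ednra over all 8 libraries (0.84). Without the nuclei of shared barcodes, an alternative chosen after seeing the data, Edn3 in stroma 2 was at 1.65 (adjusted p = 0.0337), Edn3 in dilator muscle at 1.41 (0.0332) and Ednra in sphincter 2 at 1.82 (0.0351). The cause of these changes was not tested.

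Whether the replicate numbers of the titles pair the libraries was not settled. Deviations of each library from its condition mean were correlated, with medians over 8 cell types. For number 1 the median was 0.137 for untreated with constricted, 0.165 for untreated with dilated and 0.492 for constricted with dilated. For number 2 the medians were 0.014, 0.138 and -0.084 in the same order. Untreated 3 with constricted 3 had 0.166. Libraries of unlike numbers were not compared. The deviations of the 2 dilated libraries mirror each other, since both are taken from their common mean. The check therefore cannot decide on pairing. With the replicate block the members called with dilation were 2, Edn3 in stroma 2 (1.70, adjusted p = 0.0081) and in dilator muscle (1.84, adjusted p = 0.0019), Ednra in sphincter 2 was at 1.42 (adjusted p = 0.0938), and the pathway pairs called were 14.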

Other observations

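Edn3 and Ednra led in the same cell type, so their joint presence in single stroma 2 nuclei was counted. In untreated irises Edn3 was present in 28.8% of the 660 nuclei with an Ednra UMI and in 22.5% of those without, in constricted irises in 36.0% and 42.1%, and in dilated irises in 45.2% and 47.0%. After thinning to 1000 UMIs per nucleus the shares were 13.3% and 11.1% in untreated, 14.6% and 23.3% in constricted, and 21.4% and 26.7% in dilated irises. Cells of a library are not replicates, so no test was made.

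In endothelial cells, Ece1 was present in 33.9% of the 109 nuclei with an Edn1 UMI and in 36.6% of the others. Ednrb was present in 4.59% of nuclei with Edn1 (5 of 109) and in 15.2% of those without, and after thinning in 1.49% and 6.38%, at 273 endothelial nuclei in all. In leukocytes the 28 nuclei with an Ednrb UMI held Sox10 in 10.7%, against 1.39% of the other leukocytes, with 3026 and 1948 UMIs in the median nucleus.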
